A study of Mus musculus with 9 samples.

Results

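Gene expression in the forebrain of mice that had drunk an antipsychotic drug was compared with that of untreated mice, with the clozapine and the haloperidol arrays joined into 1 treated group. Group membership was read from the sample titles, and all 9 of the 9 arrays of the study entered, 6 treated and 3 untreated. Within this comparison, the genes described in most depth are those for which every treated array lay on the same side of every control array. That held for 101 of the 7453 probe sets tested, or 1.36%, where a probe set is a group of short probes that reads 1 transcript. When nothing differs between the groups, a share of 0.0238 is expected to separate in this way, which is more than was seen.

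All animals were male C57BL mice, an inbred laboratory strain, listed as 4 weeks old, housed individually under a light and dark cycle and given 2 weeks to acclimatise. Each group held 10 animals, of which 3 were hybridised, 1 animal per Affymetrix U74Av2 array and without pooling. Treated mice drank clozapine at 12 mg/kg/day or haloperidol at 1.6 mg/kg/day for 4 weeks, and control mice received no drug. Both doses were set in the labels to the top of the human clinical range, so the pool joins 2 drugs at different doses. How the 3 animals per group were selected from the 10, and the hour at which they were killed, are not given in the sources used here. The titles name the right side of the forebrain and the tissue entry the left, so the side was not settled.

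Clozapine is an atypical antipsychotic that binds many serotonin, muscarinic, adrenergic and dopamine receptors, whereas haloperidol is a typical antipsychotic that blocks mainly dopamine D2-type receptors. Dopamine D2 receptors are abundant in the striatum, which is part of the forebrain sampled here. What the 2 drugs have in common in forebrain RNA is the question that pooling them addresses.

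Values are log2 values, so a difference of 1 is a doubling, and differences are treated minus control throughout. Marker genes of forebrain cells were measured. Across the 9 arrays the inhibitory neuron gene Gad1 lay between 12.05 and 12.65, the striatal neuropeptide gene Penk between 11.26 and 11.86 and the myelin gene Mbp between 12.20 and 12.78. The cerebellar granule cell genes Cbln1, at most 2.73, and Gabra6, at most 3.15, were below the level filter of 3.448 on every array, while a further cerebellar marker, Pcp2, lay between 7.07 and 7.46, above the filter. Not all markers were even between arrays, since the excitatory neuron gene Camk2a ranged from 3.87 in control 3 to 9.42 in clozapine 1. Pituitary hormone genes stood high in haloperidol 3 alone, where growth hormone, Gh, was at 12.57.

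The arrays also fell into 3 sets that cross the treatments, called here array sets. Set A holds clozapine 1, haloperidol 3 and control 1, set B holds clozapine 3, haloperidol 1 and control 2, and set C holds clozapine 2, haloperidol 2 and control 3. Correlations between arrays of the same set ran from 0.9701 to 0.9941 with a median of 0.9924. Between arrays of the same treatment the median was 0.9825. The sets were drawn from these same arrays, so the higher median is no independent evidence for them. The place of control 3 in set C is not borne out by correlation. It correlated at 0.9748 with clozapine 2 and 0.9701 with haloperidol 2, but at 0.9779 with clozapine 3 and 0.9753 with haloperidol 1. In an antisense control probe set of Gapdh, control 3 was at 6.74, beside 6.98 in clozapine 2 and 7.12 in haloperidol 2. Clozapine 3 and haloperidol 1 were there at 5.42 and 5.38. Because each set holds 1 control and 1 array of each drug, differences within a set are given below beside the pooled ones. The sets were seen in the data and are not named in the labels.

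No probe set passed the test of treated against control. With limma's moderated test adjusted by the Benjamini-Hochberg method over all probe sets, 0 of 7453 (0%) had an adjusted p under 0.05. The lowest adjusted p was 0.301, for Dbp, and the next lowest was 0.936. At an unadjusted p under 0.05 there were 104 probe sets above control (1.4%) and 100 below (1.34%), fewer than the 372.7 that this threshold gives when nothing differs. With the array sets as a block the counts were 262 and 249, which together exceed that number, and again 0 passed the adjusted threshold. The sets were drawn from these same arrays, so that number need not hold for the fit with this block. The median standard error of a difference was 0.13 log2 units. Nothing below therefore counts as a change that passed, and each gene is given by its values. Of the 31 genes named for lack of overlap, all except Dbp had an adjusted p of 0.936 in limma.

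Of the 101 probe sets without overlap, 39 lay above the controls (0.523%) and 62 lay below (0.832%). The 39 above represented 37 named genes and the 62 below 54 named genes. Differences above ran from 0.13 to 0.87 with a median of 0.30, and differences below ran in size from 0.056 to 0.59 with a median of 0.22. Few were large, since 3 of the 39 and 1 of the 62 passed a fold of 1.5. An exact permutation test over the 9 arrays has 84 assignments, and its smallest two-sided p of 0.0238 is reached by every probe set without overlap by construction, so it adds nothing for them. The same 0.0238 is the share expected without overlap when nothing differs, and the observed share of 1.36% was lower.

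The gap between the groups, from the nearest treated to the nearest control array, had a median of 0.046 above and 0.029 below. It exceeded 0.1 for 13 probe sets above and 9 below. At the edge of the rule, the lowest treated value of Plaa and its highest control value were both 6.67, with a gap of 0.00061, while Ppa2 was outside with a gap of -0.00086 and a lowest treated value of 7.83. On the other side Atf6b was inside with values of 4.21 in both the highest treated and the lowest control array, and Aldoa was outside with both at 11.24.

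**Figure D1:**
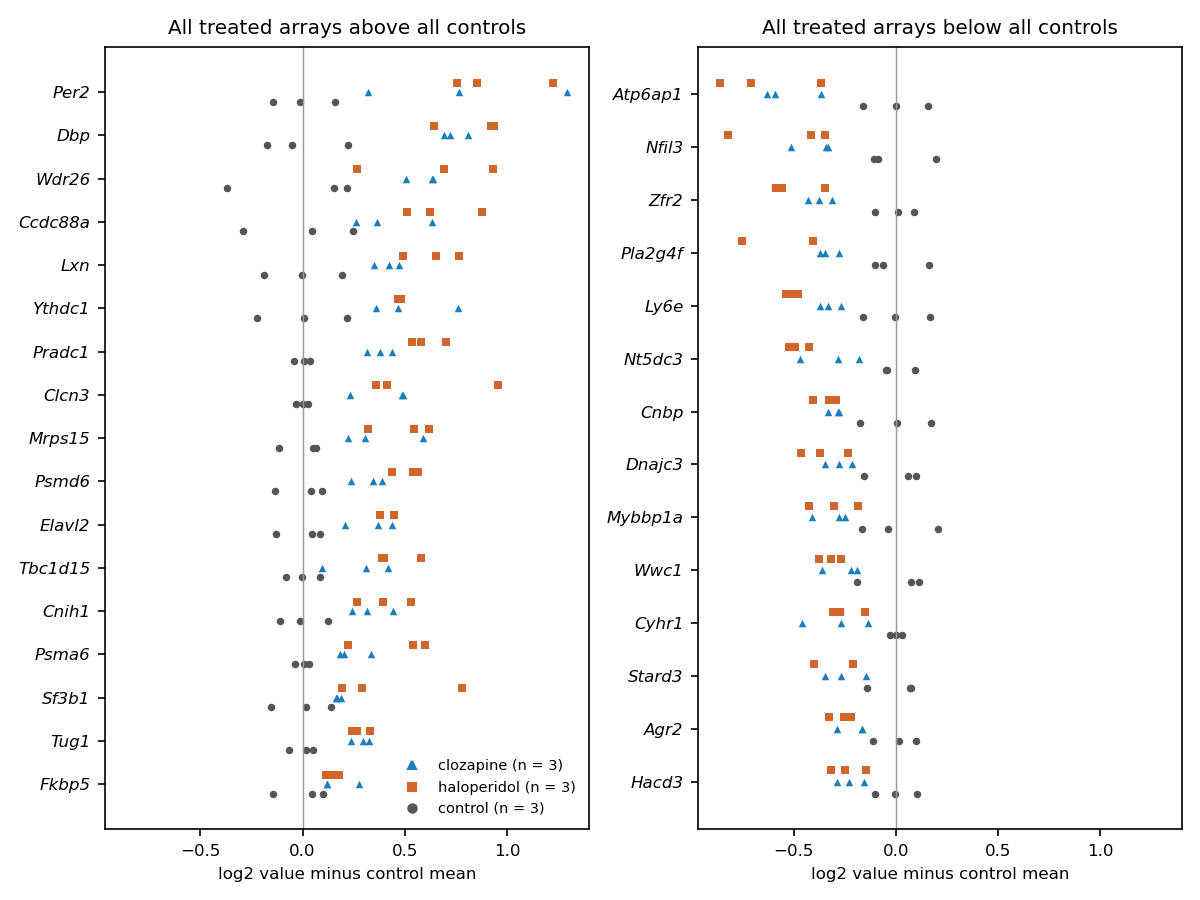
Log2 value of each array minus the mean of the 3 controls (x axis, log2 units) for the 17 named genes above and the 14 named genes below, with 1 point per array and the groups offset vertically. Clozapine is shown as triangles, haloperidol as squares and control as circles, and the widest gap between treated and control points is that of Dbp, 0.42.

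The gene with the widest gap between the groups, Dbp, belongs to the circadian clock. This cellular timekeeper is a loop in which CLOCK and its partner, encoded by Arntl, activate genes through E-box elements, and the Period and Cryptochrome proteins switch that activity off. The bZIP factor DBP is an output of the loop that activates D-box elements, and NFIL3 represses the same elements. Levels of these RNAs follow the time of day in most tissues.

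Dbp (probe set 160841_at) was at 7.38, 7.26 and 7.29 with clozapine, at 7.21, 7.50 and 7.49 with haloperidol, and at 6.52, 6.79 and 6.39 in controls. All 6 treated arrays were higher than the highest control by at least 0.42, the widest gap of any probe set tested. The difference was 0.79 ± 0.11 (SE, 6 against 3 arrays), a fold of 1.73, with a 95% interval from 0.54 to 1.03 and limma's adjusted p of 0.301. Within array sets A, B and C it was 0.92, 0.46 and 0.99, and by drug it was 0.74 for clozapine and 0.83 for haloperidol, both against the same 3 controls.

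Per2 (93694_at), a repressor of the loop, was at 5.52, 5.97 and 6.50 with clozapine, at 5.96, 6.43 and 6.06 with haloperidol, and at 5.36, 5.06 and 5.19 in controls. Its groups were 0.16 apart, and the treated arrays spread widely, with an SD of 0.36 against 0.15 in controls. The difference of 0.87 ± 0.20 (SE, 6 against 3), a fold of 1.83, was the largest among the 39 above, with an adjusted p of 0.936 in limma. It varied between array sets, at 0.42, 1.17 and 1.01 in A, B and C.

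Nfil3 (102955_at) lay on the other side of the controls. It was at 4.21, 4.22 and 4.04 with clozapine, at 4.20, 3.73 and 4.14 with haloperidol, and at 4.46, 4.44 and 4.75 in controls. Its gap of 0.22 was the widest among the 62 below, and its difference was -0.46 ± 0.13 (SE, 6 against 3), with an adjusted p of 0.936 in limma. In array sets A, B and C it was -0.29, -0.32 and -0.77. This probe set is dim, with all its treated arrays within 1 log2 unit of the filter of 3.448.

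Over all probe sets tested, 45.9% lay above the controls by their means. Of the 15 clock genes measured, 10 lay above and 5 below by their means, with a median difference of 0.21 against -0.014 over all probe sets tested. None passed the adjusted threshold, and 3 did not overlap, beside 1.36% of all probe sets tested: Per2 and Dbp above and Nfil3 below. The other 12 overlapped, and the list's median per array overlapped between the groups too. The clock list had been described in these data before, so its direction here is not independent of earlier results. Without control 3 the median was 0.009, and without control 1 it was 0.36.

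Other clock genes overlapped between the groups. Arntl, the activator, had treated arrays from 6.25 to 6.65 with a median of 6.38, and controls at 6.81, 6.59 and 7.25, so that only haloperidol 1 reached a control value. The difference was -0.46 ± 0.15 (SE, 6 against 3). Per1, another Period repressor, had treated arrays from 7.03 to 7.56 with a median of 7.30, and controls at 6.69, 7.08 and 6.95, with a difference of 0.40 ± 0.13. Here only clozapine 3 fell below the highest control.

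Nr1d2, a nuclear receptor that represses Arntl, had treated arrays from 8.67 to 9.42 and controls at 8.80, 8.57 and 8.00, with a difference of 0.59 ± 0.22 (SE, 6 against 3). Bhlhe40, a repressor that binds E-boxes, had treated arrays from 7.88 to 8.26 and controls at 7.41, 7.30 and 7.97, with a difference of 0.52 ± 0.15. In both genes 1 control array lay within the treated range. Clock, the partner of the Arntl product, differed by -0.08 ± 0.12 and Cry1, a cryptochrome, by -0.09 ± 0.33, both within their error.

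**Figure D2:**
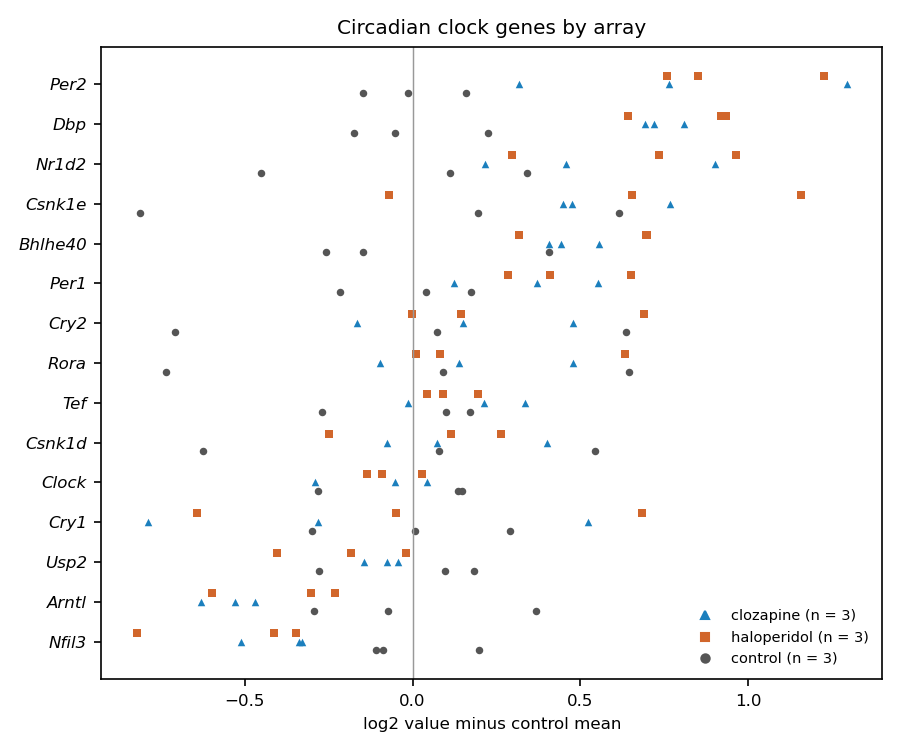
Log2 value of each array minus the control mean (x axis, log2 units) for the 15 clock genes measured, ordered by their pooled difference, with 1 point per array. Per2 and Dbp at the top have all treated points to the right of the controls and Nfil3 at the bottom has all to the left, while the other 12 genes overlap.

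Promoter sequence was set beside these genes because Dbp and Nfil3 lay on opposite sides and act on the same element. The stretches shown come from RefSeq on build GRCm38.p6 and run 5′ to 3′ on the gene's own strand, from 250 bases before the transcript start, with the first 30 transcribed bases in capitals. Dbp is at chr7:45704997-45705276 on the plus strand and Nfil3 at chr13:52981010-52981289 on the minus strand.
Dbp: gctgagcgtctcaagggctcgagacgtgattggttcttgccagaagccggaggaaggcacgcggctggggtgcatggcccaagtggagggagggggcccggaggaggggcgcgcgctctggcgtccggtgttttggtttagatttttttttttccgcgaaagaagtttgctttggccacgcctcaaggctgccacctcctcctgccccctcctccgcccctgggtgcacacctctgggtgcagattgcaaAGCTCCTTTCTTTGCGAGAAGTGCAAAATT
Nfil3: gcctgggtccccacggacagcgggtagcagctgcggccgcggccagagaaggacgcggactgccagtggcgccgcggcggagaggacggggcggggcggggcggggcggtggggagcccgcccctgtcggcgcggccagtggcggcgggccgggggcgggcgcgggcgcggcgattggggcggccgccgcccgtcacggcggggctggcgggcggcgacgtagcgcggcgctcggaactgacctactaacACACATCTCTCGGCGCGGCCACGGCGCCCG
A search of both strands found neither the E-box letters CACGTG nor the D-box letters TTANGTAA in the 300 bases held for either gene, which says only that these letters are not in this window.

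Among genes without overlap, a promoter was matched for 27 of the 37 above and 48 of the 54 below. CACGTG occurred in 4 of the 27 (14.8%) and 10 of the 48 (20.8%), beside 12.5% of the 4603 tested genes with a promoter and 7.15% of all 32851 promoters held. TTANGTAA occurred in 0 of the 27 and 0 of the 48, beside 1.80% of tested genes and 2.32% of all promoters. The 3 E-boxes of Dvl2, a Wnt signalling scaffold, and the single ones of Wdr26, Zfr2 and Fkbp5 are shown with the motif in capitals, since these genes lay on both sides of the controls.
Dvl2, 123 bases before the start, chr11:70000452-70000491: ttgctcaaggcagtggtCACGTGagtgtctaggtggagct
Dvl2, 76 bases before the start, chr11:70000499-70000538: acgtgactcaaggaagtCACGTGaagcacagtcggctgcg
Dvl2, 33 bases before the start, chr11:70000542-70000581: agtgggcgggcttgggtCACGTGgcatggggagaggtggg
Wdr26, 104 bases before the start, chr1:181212060-181212099: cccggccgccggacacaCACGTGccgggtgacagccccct
Zfr2, 219 bases before the start, chr10:81232927-81232966: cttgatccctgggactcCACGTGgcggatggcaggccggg
Fkbp5, 169 bases before the start, chr17:28486296-28486335: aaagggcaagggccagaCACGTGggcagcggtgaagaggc
Dvl2 lay below the controls by 0.0040 with a difference of -0.34, Zfr2 lay below with -0.43, and Wdr26 and Fkbp5 lay above with 0.61 and 0.16. A match is a description of the letters and not a site of binding.

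Psmd6 and Psma6 are the members of the proteasome list named above the controls. Psmd6 (160239_at), a subunit of the regulatory cap of the proteasome, had treated arrays from 8.61 to 8.94 with a median of 8.79, and controls at 8.41, 8.24 and 8.47, with a difference of 0.42 ± 0.095 (SE, 6 against 3). Psma6 (96952_at), a ring subunit of the proteasome core, had treated arrays from 9.87 to 10.29 with a median of 9.97, and controls at 9.65, 9.72 and 9.69, with a difference of 0.35 ± 0.11. The controls of Psma6 were within 0.07 of each other, and no treated array came closer than 0.15 to them.

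Of the 38 proteasome subunits and partners measured, 25 lay above and 13 below, with a median difference of 0.076. Over all probe sets tested, 45.9% lay above. Psmd6 and Psma6 were the 2 of the list without overlap, beside 1.36% of all probe sets tested. The lowest was Psmd11, another cap subunit, at -0.54. Wdr26 (160130_at), a subunit of a ubiquitin ligase complex, had treated arrays from 7.61 to 8.28 with a median of 7.98, and controls at 7.56, 6.97 and 7.50. Its difference was 0.61 ± 0.17 (SE, 6 against 3), a fold of 1.53, and its other 3 probe sets that passed the filter gave 0.10, 0.32 and 0.39, all overlapping.

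Of the RNA-binding and splicing list, Elavl2, Ythdc1 and Sf3b1 are named above the controls, and Cnbp, described further on, below them. Elavl2 (92317_at), a neuronal RNA-binding protein, had treated arrays from 8.33 to 8.58 with a median of 8.51, and controls at 7.99, 8.17 and 8.21, with a difference of 0.37 ± 0.083 (SE, 6 against 3). Ythdc1 (160313_at), a nuclear reader of N6-methyladenosine, had treated arrays from 8.37 to 8.77 with a median of 8.48, and controls at 7.78, 8.23 and 8.01, with a difference of 0.50 ± 0.12. Sf3b1 (97808_at), a core splicing factor, had 5 treated arrays between 8.55 and 8.67 and haloperidol 2 at 9.17, against controls at 8.40, 8.23 and 8.52.

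The interval of the Sf3b1 difference, -0.03 to 0.63, includes 0 although its groups did not overlap. A brighter probe set of Sf3b1, with a mean of 8.78 over the 9 arrays, differed by 0.18 ± 0.14 and overlapped. Over the 40 RNA-binding and splicing genes measured, 27 lay above and 13 below with a median of 0.066. By the brightest probe set of each gene, 2 did not overlap, beside 1.36% of all probe sets tested. The lowest was Mbnl1, a splicing regulator, at -0.33. Tug1 (103400_at), a long non-coding RNA, had the smallest treated SD among the genes named, 0.041. Its treated arrays ran from 8.20 to 8.29, its controls were at 7.89, 7.98 and 8.01, and its difference was 0.28 ± 0.065.

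Pradc1 (95619_at), which encodes a secreted glycoprotein with a protease-associated domain, was at 6.83, 6.71 and 6.77 with clozapine, at 7.09, 6.97 and 6.93 with haloperidol, and at 6.35, 6.43 and 6.40 in controls. The 3 haloperidol arrays were all above the 3 clozapine arrays, and the gap to the controls was 0.28. Its pooled difference of 0.49 ± 0.095 (SE, 6 against 3) was 0.53, 0.50 and 0.44 in array sets A, B and C. Lxn (96065_at), encoding the carboxypeptidase inhibitor latexin, had treated arrays from 7.76 to 8.17 with a median of 7.89, and controls at 7.40, 7.22 and 7.60, with a difference of 0.53 ± 0.12.

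Cnih1, Clcn3, Tbc1d15 and Ccdc88a also lay above the controls and belong to none of the gene lists. Clcn3 (94465_g_at), a chloride and proton exchanger of endosomes and synaptic vesicles, had treated arrays from 8.88 to 9.60 with a median of 9.09, and controls at 8.67, 8.65 and 8.61, with a difference of 0.49 ± 0.14 (SE, 6 against 3). Its 3 other probe sets gave -0.02, 0.30 and 0.35 and overlapped. Cnih1 (97528_at), a cargo receptor for export from the endoplasmic reticulum, had treated arrays from 9.15 to 9.44 with a median of 9.27, and controls at 8.90, 8.80 and 9.03.

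The difference of Cnih1 was 0.36 ± 0.090 (SE, 6 against 3). Ccdc88a, an actin-binding protein, and Tbc1d15, an activator of Rab GTPase hydrolysis, had differences of 0.54 and 0.37 and gaps of 0.015 and 0.010. Their other probe sets gave -0.01 and 0.09. Mrps15 (95498_at), a protein of the small mitochondrial ribosome subunit, differed by 0.43 ± 0.11, with treated arrays from 6.19 to 6.59 and controls from 5.85 to 6.04, while the 41 mitochondrial ribosome genes measured had 23 above, 18 below and a median of 0.041. Mrps15 was the single one of them without overlap, beside 1.36% of all probe sets tested.

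Fkbp5 (94297_at), a co-chaperone that restrains the glucocorticoid receptor and is itself induced by glucocorticoids, lay just above the controls. Treated arrays ran from 5.58 to 5.75 with a median of 5.60, and controls were at 5.57, 5.33 and 5.52, a gap of 0.016. The difference was 0.16 ± 0.078 (SE, 6 against 3), with an interval from -0.02 to 0.33. The 15 glucocorticoid-responsive genes measured had 7 above and 8 below and a median of -0.069. Fkbp5 was the single one of them without overlap, beside 1.36% of all probe sets tested.

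Among genes below the controls, the largest difference was that of Atp6ap1, whose product attaches to the proton pump of vacuoles and lysosomes. Its probe set 161806_r_at was at 6.88, 6.92 and 7.15 with clozapine, at 7.14, 6.65 and 6.80 with haloperidol, and at 7.51, 7.67 and 7.35 in controls. The groups were 0.20 apart and the difference was -0.59 ± 0.13 (SE, 6 against 3), a fold of 1.5. It was -0.67, -0.52 and -0.57 in array sets A, B and C. A brighter probe set of the gene, with a mean of 10.26 over the 9 arrays, differed by -0.10 ± 0.09 and overlapped.

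Zfr2 (93158_at), a zinc finger protein related to an RNA-binding factor, had treated arrays from 5.33 to 5.61 with a median of 5.52, and controls at 5.82, 5.93 and 6.01. Its difference was -0.43 ± 0.088 (SE, 6 against 3) with a gap of 0.21. Ly6e (101487_f_at), a membrane-anchored surface protein that is also on the endothelial list, had treated arrays from 10.18 to 10.44 with a median of 10.28, and controls at 10.71, 10.88 and 10.55, with a difference of -0.42 ± 0.097. Both genes were named because every treated array lay below every control, so the shared side of the drugs is set by the rule. The second probe set of Ly6e differed by -0.12.

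Of the 14 endothelial and vascular genes measured, 4 lay above and 10 below, with a median of -0.11. Ly6e was the single one without overlap, beside 1.36% of all probe sets tested. Cldn5, the tight junction protein of brain endothelium, was the lowest at -0.65, with treated arrays from 5.67 to 6.81 and controls at 7.24, 7.29 and 6.32, so control 3 lay inside the treated range. Without control 2 the list's median was -0.0045. In bulk tissue, fewer cells of a type and less RNA per cell cannot be told apart.

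The remaining named genes below the controls were Nt5dc3, Cnbp, Pla2g4f, Dnajc3, Wwc1, Mybbp1a, Cyhr1, Agr2, Stard3 and Hacd3. Nt5dc3 (161073_at), which carries a nucleotidase domain, had treated arrays from 6.47 to 6.82 with a median of 6.55, and controls at 6.95, 7.09 and 6.95, with a difference of -0.40 ± 0.095 (SE, 6 against 3). Pla2g4f (161108_r_at), a cytosolic phospholipase, was dim, with treated arrays from 3.90 to 4.38 and controls at 4.56, 4.60 and 4.82, and its difference was -0.43 ± 0.11. Cyhr1 (103467_g_at) had controls within 0.06 of each other, at 7.15, 7.08 and 7.11, and treated arrays from 6.66 to 6.98.

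The differences of the other 7 lay between -0.23 and -0.32. Some gaps were very small, at 0.00034 for Wwc1, a memory-linked scaffold protein, and 0.0012 for Stard3, a cholesterol-binding protein of late endosomes. Several other probe sets of these genes did not follow. For Cnbp, a zinc finger nucleic acid binding protein, 2 brighter probe sets gave 0.03 and 0.13, and for Dnajc3, a co-chaperone of the endoplasmic reticulum, the others gave -0.04 and 0.30. Hacd3, an enzyme of very long chain fatty acid synthesis, had another probe set at 0.65 ± 0.51.

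Agreement between probe sets of the same gene was weak over all genes without overlap. The genes above had 19 further probe sets that passed the filter, in 11 genes, of which 10 lay above, 0 were free of overlap and the median difference was 0.030, where the lead probe sets of those genes had a median of 0.30. For the genes below there were 24 further probe sets in 18 genes, of which 15 lay below and 2 were free of overlap, with a median of -0.054 against -0.26 for the lead probe sets of those genes. Inpp5b, an inositol phosphatase, at -0.11, and Pex14, a peroxisomal import protein, at -0.20, supplied those 2.

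Probe set names carry a special suffix where the probes depart from the standard choice, often because they are not unique to 1 transcript. Such suffixes marked 19.7% of all probe sets tested, 12.8% of those above (5 of 39) and 40.3% of those below (25 of 62). The suffix _r_at, given where the usual rules of probe choice were relaxed, marked 5.77% of all, 0 of those above and 12 of those below (19.4%). Atp6ap1, Cnbp, Pla2g4f, Dnajc3 and Agr2 are named here from _r_at probe sets. Ly6e, Mybbp1a and Stard3 (_f_at), Cyhr1 and Clcn3 (_g_at) and Ccdc88a (_i_at) are named from probe sets with another special suffix. Cross-hybridisation of all these was not tested.

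The 2 directions also differed by signal level. Probe sets above had a median level of 7.76 and those below 6.09, beside 6.23 over all probe sets tested. Probe sets were divided by level into 4 bins of equal size. In the dimmest bin, from 3.45 to 4.61, the median difference was -0.074, only 20.3% lay above the controls, and 1 probe set was above and 17 were below without overlap. In the brightest bin the median was 0.028, 57.4% lay above, and the counts were 19 above and 9 below.

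By drug, the median difference of the dimmest bin was -0.011 for clozapine and -0.13 for haloperidol, both against the same controls. Taken alone, haloperidol had 171 probe sets above and 1445 below all controls, and clozapine 95 above and 161 below. The array clozapine 2 lay 0.12 above the 9-array mean in the dimmest bin and haloperidol 3 lay 0.15 below it. The part of signal level in the counts below was not tested.

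**Figure D3:**
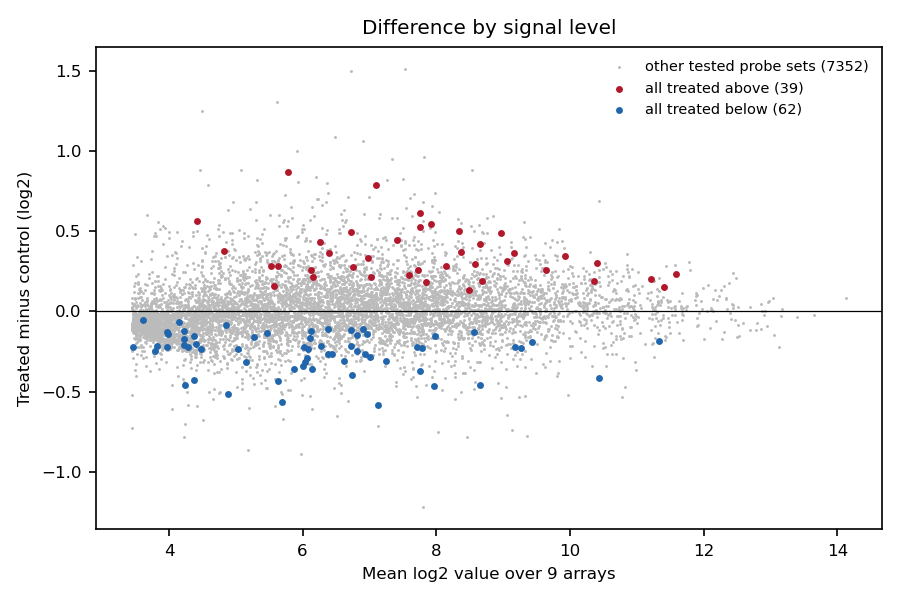
Treated minus control difference (y axis, log2) against the mean log2 value over the 9 arrays (x axis) for the 7453 probe sets tested, with the 39 above in red, the 62 below in blue and the others in grey. The cloud at the dim end, below about 4.61, sits under 0 and holds 17 of the blue points and 1 of the red.

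The counts also depended on single arrays. Leaving out an array can only add to the probe sets without overlap. A rise is therefore expected whichever array goes, and a larger one for a control than for a treated array. Leaving out clozapine 2 took those below from 62 to 937, with 57 above. Without control 1 there were 246 above and 212 below, and without control 3 there were 225 above and 298 below. Control 3 had the widest gap between 3′ and 5′ probe sets of Actb and Gapdh, a measure of RNA integrity, at 1.73 log2 units, beside 0.88 and 1.46 in the other controls and 0.81 to 1.30 in treated arrays. Whether RNA integrity had a part in these counts was not tested.

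**Figure D4:**
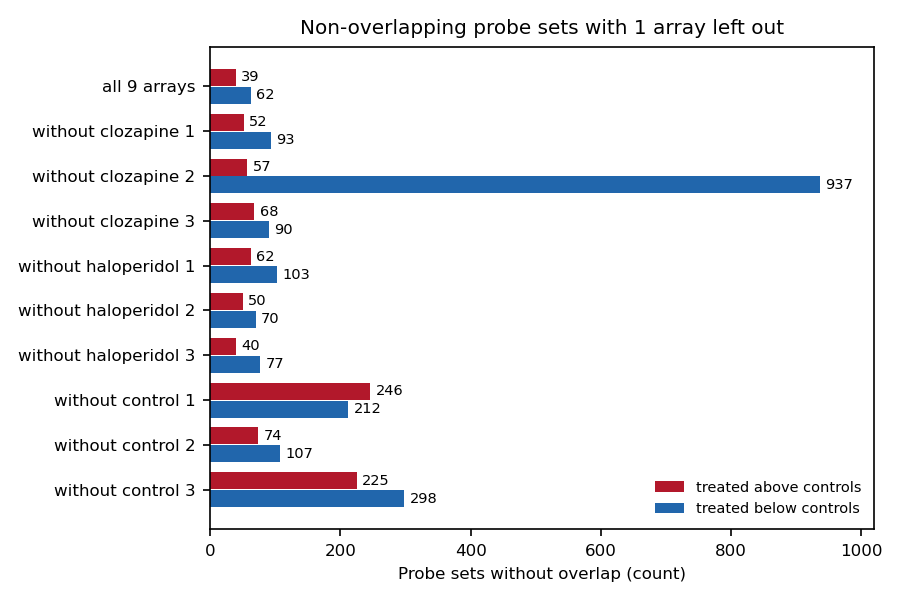
Number of probe sets without overlap (x axis, count) with all 9 arrays and with each array left out in turn, for treated above controls (red) and below controls (blue). The bar for probe sets below reaches 937 without clozapine 2, against 62 with all arrays.

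The scale of the arrays mattered as well. With each array centred on its median, 24 probe sets lay above and 101 below, so the share above was 19.2% in place of 38.6%, and 15 of the original 39 and 32 of the original 62 were among them. With quantile normalization there were 46 above and 94 below, of which 24 and 37 were shared. Among probe sets with an unadjusted p under 0.05, the share above was 51.0% as deposited, 33.2% when centred and 37.5% after quantile normalization. Of the 31 named genes, 22 were free of overlap under both scalings, 10 of the 17 above and 12 of the 14 below.

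Dbp, Per2, Pradc1, Lxn, Ythdc1, Cnih1, Mrps15, Ccdc88a, Clcn3 and Psma6 were those 10 above. Elavl2, Psmd6, Tug1 and Wdr26 overlapped after centring, and Tbc1d15, Sf3b1 and Fkbp5 overlapped under both scalings. Below the controls, Wwc1 overlapped under both and Hacd3 after centring. Nfil3, Atp6ap1, Zfr2 and Ly6e kept the groups apart under both.

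The 2 drugs were set against each other for the 31 named genes. In limma's contrast of clozapine minus haloperidol, 0 of them had an adjusted p under 0.05 and 1, Pradc1, had an unadjusted p under 0.05. Its difference was -0.23, with a 95% interval from -0.41 to -0.05 and an adjusted p of 0.915. For Dbp the interval ran from -0.38 to 0.20, for Per2 from -0.71 to 0.40 and for Nfil3 from -0.21 to 0.47, so differences between the drugs of up to these sizes could not be resolved with 3 arrays each. Haloperidol was further from the shared controls in 26 of the 31 genes. Over all probe sets tested, haloperidol alone also had more outside all controls, with 171 above and 1445 below, against 95 and 161 for clozapine. The doses differ, and the part of dose was not tested.

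Receptors bound by the drugs were measured for 3 of the listed monoamine and muscarinic receptors. Drd2, the dopamine D2 receptor, had treated arrays from 5.31 to 5.72 with a median of 5.34, and controls at 5.36, 5.37 and 4.81. The treated arrays lay around controls 1 and 2, with control 3 lower, and the difference was 0.24 ± 0.15 (SE, 6 against 3). Without haloperidol 3 and control 3 it was -0.00016.

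Chrm1, a muscarinic acetylcholine receptor, differed by 0.81 ± 0.37 (SE, 6 against 3), with controls at 6.24, 5.64 and 4.29 and treated arrays from 5.88 to 6.69. Htr2c, a serotonin receptor, differed by 0.31 ± 0.27. All 3 overlapped, and control 3 was the lowest array for each. Penk, the striatal enkephalin gene, named here for its known link to dopamine D2 signalling and not by the rule, differed by -0.02 ± 0.14, with controls between 11.56 and 11.63 inside the treated range of 11.26 to 11.86. Fos, an immediate early gene chosen in the same way, differed by 0.17 ± 0.23.

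Over all 26 gene lists, which held 449 genes measured, 14 had a median difference above 0 and 12 below, and 10 of the 449 genes did not overlap by their brightest probe set, beside 101 of the 7453 probe sets tested (1.36%). The median of each list was also taken per array, and in all 26 lists those values overlapped between treated and control arrays. For the counts above that follow, the share over all probe sets tested was 45.9%, from 20.3% in the dimmest bin to 57.4% in the brightest. Synaptic vesicle genes had 15 of 17 above with a median of 0.22, which was 0.044 without control 3, and 0 of them were free of overlap. Vamp1, a vesicle fusion protein, carried the largest difference of that list, 1.30, with control 3 at 2.06 and all other arrays at 5.70 or more.

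Cortical and hippocampal excitatory neuron genes had 10 of 15 above with a median of 0.14, led by Camk2a at 1.51 ± 0.93 (SE, 6 against 3), where control 3 was the lowest array. Astrocyte genes had 6 of 17 above with a median of -0.056, the lowest being Glul, glutamine synthetase, at -1.22, where control 3 was the highest array at 10.31. Microglial genes had a median of 0.031, which turned to -0.010 after centring, and the MAP kinase list went from 0.012 to -0.029. Of the other lists, striatal neurons were at -0.024, interneurons at -0.061, oligodendrocytes at -0.013 and immediate early genes at -0.040.

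Metabolic and chaperone lists lay close to 0. Respiratory chain genes had 23 of 51 above and a median of -0.012, heat shock and chaperone genes 15 of 32 and -0.008, cholesterol synthesis genes 10 of 16 and 0.068, purine synthesis and salvage genes 8 of 12 and 0.052, and lysosome and proton pump genes 18 of 26 and 0.049. The pituitary and blood lists were carried by single arrays. The pituitary list of 3 genes had a median of 0.13 with haloperidol 3 highest, and the blood list of 4 genes 0.13 with clozapine 1 highest. Leaving out each array in turn changed the sign of the median for 15 of the 26 lists at least once, the pituitary and blood lists among them. Olfactory bulb genes were at -0.022 and ran from -0.33 to 0.19 with each array left out in turn. On the same basis choroid plexus genes, at -0.004, ran from -0.11 to 0.026, and cerebellar genes, at -0.034, from -0.044 to 0.12.

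**Figure D5:**
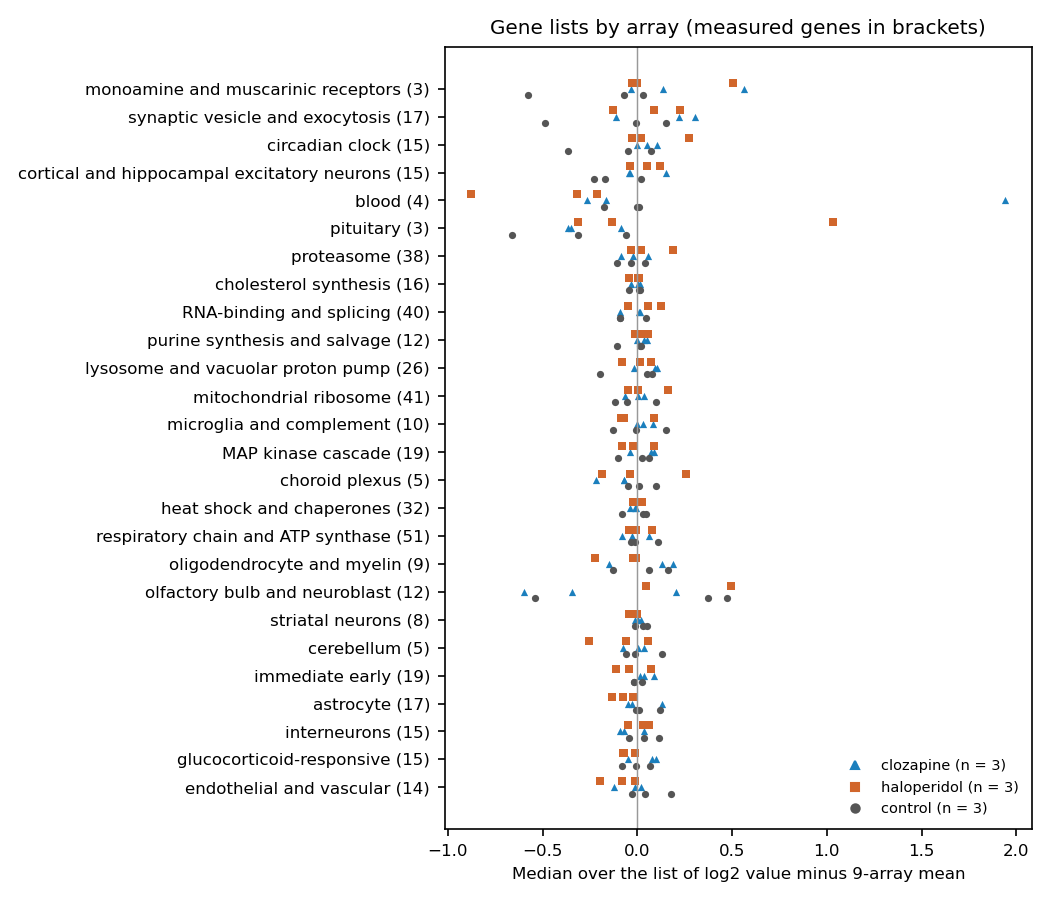
Median over each list of the log2 value minus the 9-array mean of each gene (x axis, log2 units) for the 26 lists, with 1 point per array and the number of genes measured in brackets. Treated and control points overlap in every list, and in the synaptic vesicle list 1 control point lies far to the left of the others.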

How the data were processed

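Each array's deposited column holds log2 values, which the authors computed by GCRMA (per the submitters' processing notes). That method corrects background from probe sequence, normalises arrays and summarises each probe set. Its version was not given in the sources used here. The table held 12488 probe sets, of which 66 controls entered no test. Of the other 12422, 10833 had 1 gene symbol in the platform annotation, 396 had several and 1193 had none. Symbols of 10817 were matched to RefSeq genes of GRCm38.p6 and updated. Tests covered probe sets whose 9-array mean exceeded 3.448, the 40th percentile, 7453 in all, of which 6708 with 1 symbol stood for 5650 genes. No read depth applies, and the number of arrays limits the precision.

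Tests used limma 3.58.1 in R 4.3.3, with lmFit and eBayes on 6 treated and 3 control arrays, 7 residual and 2.33 prior degrees of freedom, two-sided, with Benjamini-Hochberg adjustment over the probe sets tested. The fit was tested on simulated data. The contrast of the drugs came from a fit with 1 mean per treatment. Groups were read from the titles. Each array is a separate animal, per the labels.

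Genes named are, in each direction, the 14 of lowest unadjusted p among probe sets with 1 symbol and no overlap, plus 3 genes without overlap that belong to a gene list. Members and lists were chosen with earlier results of these data known. In lists, each gene was represented by its brightest probe set. Alternatives covered the filter, a floor, scaling, the model, array weights, blocks, the threshold, probe set suffixes and arrays left out. The array sets as a block, gene-by-gene array weights and the fit without haloperidol 3 and control 3 were added after seeing the data.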

Additional observations from a re-analysis of the deposited data

Results flagged for a closer look

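In 6 of the 39 genes tested for a single array that stands apart, 1 treated array lay further from the other 5 than Dixon's 95% limit of 0.625 allows, and chance marks about 1 in 20 groups. Elavl2 in clozapine 1 was at 8.33, with the nearest of the others at 8.49. Ythdc1 in clozapine 3 was at 8.77, with the nearest at 8.49. Clcn3 and Sf3b1 in haloperidol 2 were at 9.60 and 9.17, with the nearest at 9.14 and 8.67. Pla2g4f in haloperidol 3 was at 3.90 and Nfil3 in haloperidol 2 was at 3.73, with the nearest at 4.25 and 4.04. Without haloperidol 2 the difference of Sf3b1 was 0.20.

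Among the 5035 probe sets that were not tested, 0 lay above and 5 below all controls without overlap, and several stood high in 1 treated array. In haloperidol 2 the 3 probe sets of mouse 18S ribosomal RNA were at 10.9, 9.35 and 8.97, where the highest controls were at 2.30, 2.83 and 2.33, and a Gapdh control probe set was at 9.54 against 6.35. In haloperidol 3 pituitary hormone genes were high: Gh was at 12.6, Pomc at 10.3, the 2 probe sets of Cga at 7.89 and 7.63, and Tshb at 6.14, where the highest controls lay between 1.14 and 2.93.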

How the results depend on the processing

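No probe set was called in any fit except that with array weights, where 322 were called above and 502 below. That estimate did not converge and gave control 2 a weight of 13.8 against 0.305 to 1.38 for the other arrays. With gene-by-gene array weights 0 were called. With the array sets as a block 0 were called, with 262 above and 249 below at an unadjusted p under 0.05. With the replicate number as a replicate block 0 were called, 100 above and 81 below had an unadjusted p under 0.05, and the lowest adjusted p in limma was 0.951. Whether the numbers pair the arrays was not settled by the values. Of 9 same-numbered pairs, 3 had deviations correlated over 0.1, with r from -0.597 to 0.697. Of the 9 arrays, 5 correlated best with an array of their own number. The count without overlap below was 41 at the 60th percentile filter and 37 without special suffixes. It was 24 above and 101 below after centring and 94 below after quantile normalization. Leaving out each array in turn gave 40 to 246 above and 70 to 937 below, and 0 called in every case. The counts moved by over 1.5 times without clozapine 2 (937 below), clozapine 3 (68 above), haloperidol 1 (62 above, 103 below), control 1 (246 and 212), control 2 (74 and 107) and control 3 (225 and 298). Fewer arrays separate more easily whichever is left out, and most of all without a control. A rise by itself therefore does not single out an array. Without haloperidol 3 and control 3 there were 231 above and 359 below. Of 841 values of 39 genes under the alternatives, 806 kept their direction and their side of the threshold, 31 passed it, all with array weights, and 4 turned in sign. Of the 39 genes, 31 were named for lack of overlap, and leaving out an array cannot turn their sign. Their kept direction in those fits was thus fixed by the rule. Drd2 was at -0.00016 without haloperidol 3 and control 3. Penk was at 0.011 without clozapine 1, 0.037 without clozapine 2 and 0.000599 without control 1, and ran from -0.082 to 0.037 with each array left out in turn. Of 416 list medians, 34 moved by more than the spread within groups. The causes were not tested.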
